A study of Mus musculus with 2 samples.

Results

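The FGF genes described here are 10 genes of fibroblast growth factor signalling in *Tric-b*-knockout mouse cartilage, comprising the receptors *Fgfr1*, *Fgfr2*, *Fgfr3* and *Fgfrl1*, the ligands *Fgf2*, *Fgf7*, *Fgf9* and *Fgf18*, and the Sprouty inhibitors *Spry1* and *Spry2*. They were listed by name, and every probe set annotated to 1 of them and to no other gene was taken, which gave 19 of the 45037 probe sets on the array and 10 of the 18193 genes named there. Members were found on 0 probe sets shared between several genes. A probe set is a group of short oligonucleotides that reads 1 transcript or several transcripts of a gene, and its signal is a linear intensity with no physical unit.

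Both arrays carried RNA from femoral cartilage of E17.5 embryos labelled Tric-b-KO on the strains C57BL/6J and 129Sv, in which *Tmem38b*, the gene of the intracellular cation channel TRIC-B, is disrupted. One array measured cartilage enriched with round chondrocytes, here called the round zone, and the other cartilage enriched with columnar and hypertrophic chondrocytes, called the columnar/hypertrophic zone. Each RNA was a mixture of 3 preparations, so a zone was measured on 1 array, without replicates, and no p-value or standard error can be given. Both zones carried the knockout and no wild-type array was analysed here, so the values compare zones of knockout cartilage and not genotypes.

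FGF ligands bind receptor tyrosine kinases and activate the RAS-ERK cascade, phospholipase C and STAT proteins, and the cascade induces its own inhibitors, among them the Sprouty proteins. In the growth plate, FGF9 and FGF18 from the tissue around the cartilage act on FGFR3 of chondrocytes, and FGFR3 signalling restrains chondrocyte proliferation. Activating mutations of FGFR3 cause achondroplasia, whereas loss of FGFR3 lengthens the bones of mice.

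The receptors divided between the zones. *Fgfr1* and *Fgfr2* had higher signals in the round zone, by 5.74-fold and 2.51-fold, and *Fgfr3* had a signal 2.14-fold higher in the columnar/hypertrophic zone. *Spry2* was 4.89-fold higher in the round zone, whereas the signals of *Spry1* were nearly equal. The ligands lay at or close to the lower end of the measured range in both zones. These folds are those of the brightest probe set of each gene, and the other probe sets follow with each gene.

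Differences are log2 signals in the columnar/hypertrophic zone with those in the round zone subtracted, so a negative value is a higher signal in the round zone. A floor of 65.9, the 40th percentile of the signals on both arrays, marked the lower end of the measured range. A probe set under the floor in 1 array was compared at the floor and gave a bound, and a probe set under it in both arrays was not compared. Of the 19 member probe sets, 15 were above the floor in the round zone and 12 in the columnar/hypertrophic zone, and 16 could be compared. Of the 16, 6 favoured the round zone by 2-fold or more, or 37.5%, beside 6.24% of all 29258 probe sets compared. The columnar/hypertrophic zone was favoured to that extent by 2 of the 16, or 12.5%, beside 3.58% of all. Counted by gene, 9 of the 10 members were compared, of which 3, or 33.3%, were higher in the round zone beside 6.25% of 12761 genes, and 1, or 11.1%, was higher in the columnar/hypertrophic zone beside 4.28% of genes. The median log2 difference was -0.53 over the 9 genes and -0.04 over all genes compared. The members were chosen by name with earlier results of these data known, so these shares describe the list and carry no test.

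**Figure D1:**
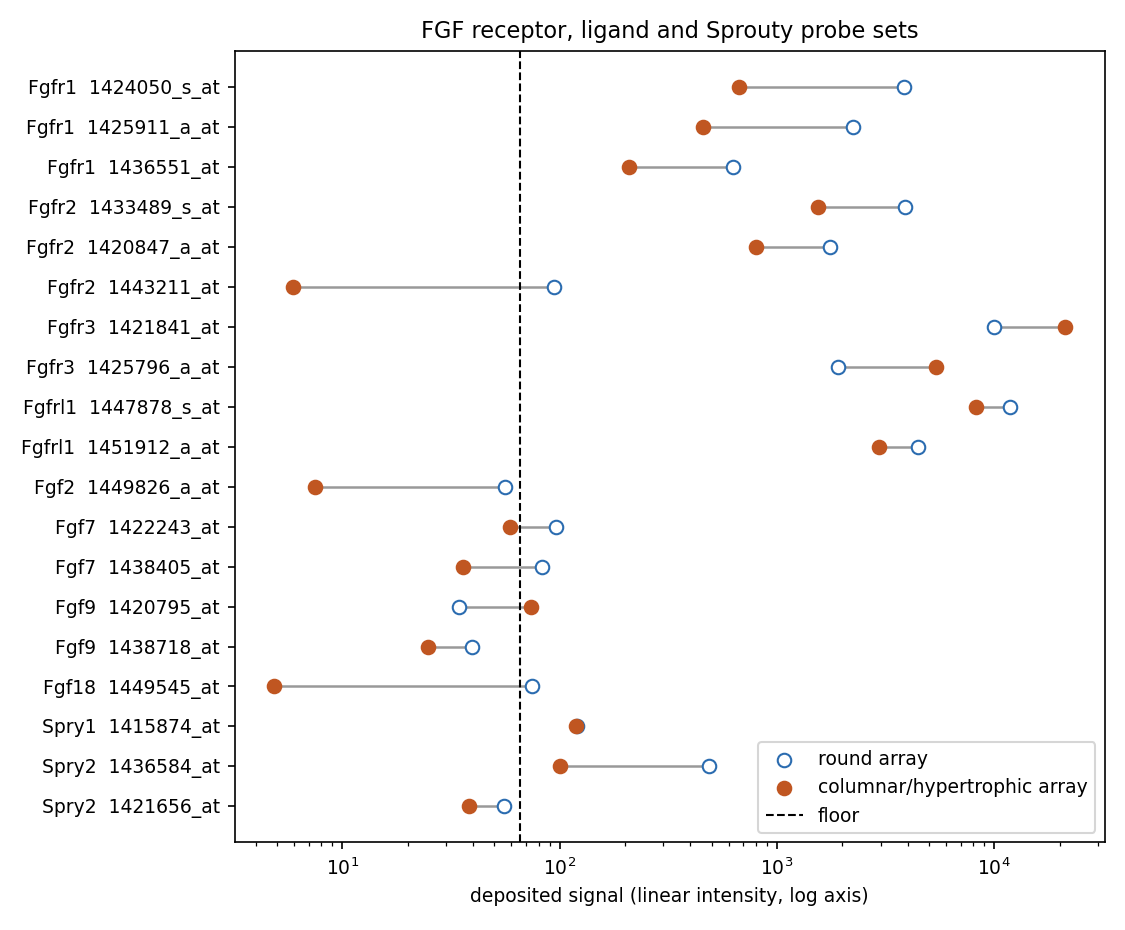
Deposited signal (linear intensity on a log axis) of the 19 probe sets of the FGF genes, 1 row for each probe set. Open circles are the array of the round zone, filled circles are that of the columnar/hypertrophic zone, and the dashed line is the floor of 65.9; the *Fgfr1* and *Fgfr2* pairs run to the left, the *Fgfr3* pairs run to the right, and the ligand circles lie around or under the floor.

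Zone markers were checked against the labels. Of 7 compared markers of round or resting chondrocytes, 4 were beyond 2-fold toward the round zone, 0 toward the other, and 2 were slightly higher in the columnar/hypertrophic zone. Of 8 columnar and prehypertrophic markers, 4 were beyond 2-fold toward the columnar/hypertrophic zone, 0 toward the round zone, and 2 were lower in the columnar/hypertrophic zone. Of 4 hypertrophic markers, 3 were compared, all 3 beyond 2-fold toward the columnar/hypertrophic zone, and *Mmp13* was under the floor in both. *Prg4*, the lubricin gene of the articular surface, had signals of 5260 in the round zone and 94.1 in the columnar/hypertrophic zone. *Ihh*, the hedgehog ligand gene of prehypertrophic cells, had signals of 87.8 and 3900, and *Col10a1*, a collagen gene specific to hypertrophic cells, gave 55.2 and 25421. *Col2a1*, the main cartilage collagen, had 49311 and 50518. Connective tissue markers, of perichondrium, tendon and fibroblasts, differed too. Of 11, 10 were lower in the columnar/hypertrophic zone, 7 of them at least 2-fold, with a median log2 difference of -1.46. Their summed signal was 84878 in the round zone and 33497 in the columnar/hypertrophic zone. Probe sets share no common scale, so this sum is weighted toward the brightest of them. All 11 were above the floor in the round zone, where *Scx* was lowest (79.2), and 9 were above it in the columnar/hypertrophic zone. *Scx* (6.03) and *Dpt* (1.62) were under the floor there, so their differences are bounds. The round section therefore held more signal of 10 of these 11 connective tissue genes. The part of connective tissue in the *Fgfr1*, *Fgfr2*, *Fgf7* and *Spry2* differences was not tested. In bulk RNA, fewer cells of a type and less RNA per cell cannot be told apart. *Tmem38b* itself had 4 probe sets with signals of 69.4 to 323 in the round zone and 43.1 to 304 in the columnar/hypertrophic zone. The position of its probes with respect to the disruption is not known here, so these values do not check the genotype.

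The sequences before the transcription starts of *Fgfr3*, *Fgfr2* and *Spry2* are shown because these genes differed between the zones in opposite directions, *Fgfr3* toward the columnar/hypertrophic zone and the other pair toward the round zone. They are the 250 bases before a RefSeq start in the mouse genome build GRCm38.p6, written 5′ to 3′ on the strand of the gene. Promoter entries were found for 9 of the 10 members, the one unmatched gene being *Fgfr1*. Capitals mark the GC box GGGCGG, which reads CCGCCC on the opposite strand. The searched motifs were GGGCGG, the TATA box TATAAA and the ETS core CCGGAA, each on both strands, and in the members' windows no match of one motif overlapped a match of another.
Fgfr3 (first start), chr5:33721474-33721723, plus strand: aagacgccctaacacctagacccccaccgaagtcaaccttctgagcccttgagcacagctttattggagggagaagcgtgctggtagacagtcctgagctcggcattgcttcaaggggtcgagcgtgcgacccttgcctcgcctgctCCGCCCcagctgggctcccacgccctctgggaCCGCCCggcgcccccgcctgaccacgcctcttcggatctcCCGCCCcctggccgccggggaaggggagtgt
Fgfr2, chr7:130266809-130267058, minus strand: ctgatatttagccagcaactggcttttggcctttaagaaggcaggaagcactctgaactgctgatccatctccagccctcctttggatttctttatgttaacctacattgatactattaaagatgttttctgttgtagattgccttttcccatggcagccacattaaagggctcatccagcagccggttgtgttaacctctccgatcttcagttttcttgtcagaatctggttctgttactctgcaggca
Spry2, chr14:105896820-105897069, minus strand: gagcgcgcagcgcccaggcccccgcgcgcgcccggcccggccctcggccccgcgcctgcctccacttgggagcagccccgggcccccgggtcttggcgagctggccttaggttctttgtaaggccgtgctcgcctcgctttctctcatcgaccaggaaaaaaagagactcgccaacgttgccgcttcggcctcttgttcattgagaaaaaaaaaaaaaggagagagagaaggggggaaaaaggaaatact

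The *Fgfr3* window held 3 GC boxes, which begin at positions -103, -71 and -31 counted from the start, and the windows of *Fgfr2* and *Spry2* held 0. The GC box was present in 32.7% of 32851 windows of this length before annotated starts, several of which can belong to 1 gene. TATAAA was present in 12.4% of them and CCGGAA in 12.0%. Among the 10 windows of the 9 matched members, *Fgfr3* having a pair of starts, 6 held a GC box, 0 held TATAAA and 1, that of *Fgfrl1*, held CCGGAA. GC boxes also stood before genes with higher signals in the round zone, 4 in the window of *Fgfrl1*, 3 before the second start of *Etv5* and 2 before *Spred1*. The matches describe letters in the windows, and no binding was measured.

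*Fgfr1* encodes a receptor tyrosine kinase with roles in limb outgrowth and in cells of the bone lineage, including hypertrophic chondrocytes and osteoblasts. Its first probe set (1424050_s_at) had a signal of 3845 in the round zone and 670 in the columnar/hypertrophic zone, a log2 difference of -2.52. The second (1425911_a_at) had 2237 and 459, a log2 difference of -2.29 and a fold of 4.88. The third (1436551_at) had 626 and 209, a log2 difference of -1.58 and a fold of 3.0. All 3 probe sets were thus lower in the columnar/hypertrophic zone, and their log2 differences had an SD of 0.49. Among all genes compared, 0.58% had a log2 difference more negative than that of *Fgfr1*. The first probe set belongs to the class whose probes may match transcripts of other genes, and the second to the class shared by transcripts of 1 gene. The third is in neither class, and its difference was the smallest of the 3.

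*Fgfr2* encodes the receptor that is known from the perichondrium, the periosteum and condensing mesenchyme. The brightest probe set (1433489_s_at) had a signal of 3891 in the round zone and 1547 in the columnar/hypertrophic zone, a log2 difference of -1.33. The next (1420847_a_at) had 1757 and 801, a log2 difference of -1.13 and a fold of 2.19. Both remained well above the floor in the columnar/hypertrophic zone. The third (1443211_at) had 94.1 and 5.93, the latter under the floor, so its signal was at least 1.43-fold higher in the round zone. The SD between the 3 probe sets was 0.43, and the mean over them was -0.99, which is itself a bound because it includes the third, whereas the first and second probe sets both passed 2-fold. Among all genes, 3.31% had a more negative difference than *Fgfr2*.

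*Fgfr3*, encoding the receptor that restrains proliferation of chondrocytes, was the only member above 2-fold toward the columnar/hypertrophic zone. Probe sets share no common scale, so their signals do not rank the genes. The probe set 1421841_at had a signal of 9933 in the round zone and 21207 in the columnar/hypertrophic zone, a log2 difference of 1.09. The probe set 1425796_a_at had 1909 and 5387, a log2 difference of 1.5 and a fold of 2.82. Both were higher in the columnar/hypertrophic zone, and both had signals far above the floor in the round zone as well. Among all genes, 3.59% had a more positive difference than the first of them. This probe set lay close to the 2-fold line, and quantile normalization gave it a fold of 1.92 and lowess centring 1.91, whereas the folds of the second were 2.69 and 2.65.

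*Fgfrl1* encodes a receptor that binds FGFs and lacks the tyrosine kinase domain. Its signals were 11845 and 8224 at 1447878_s_at and 4434 and 2955 at 1451912_a_at, in the round and columnar/hypertrophic zones, respectively. The log2 differences were -0.53 and -0.59, folds of 1.44 and 1.5 higher in the round zone, so *Fgfrl1* did not reach 2-fold. Its probe sets differed least from each other among the receptors, with an SD of 0.04. Across the other scalings their differences lay between -0.69 and -0.45.

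The differences between receptors do not depend on a factor common to all signals of an array. The log2 difference of *Fgfr3* exceeded that of *Fgfr1* by 3.61, so the ratio of their signals was 12.2-fold higher in the columnar/hypertrophic zone, and over the 6 pairings of their probe sets the excess lay between 2.68 and 4.02. Against *Fgfr2* the excess was 2.42, or 5.37-fold, with 2.23 to 2.83 over 4 pairings. Against *Fgfrl1* it was 1.62, or 3.08-fold, with 1.62 to 2.08 over 4 pairings. The relative signals of *Fgfr3* and of the other receptors therefore shifted in the same direction in each pairing used. The log2 difference of *Fgfr1* less that of *Fgfr2* was -1.19, with -1.39 to -0.25 over 6 pairings.

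**Figure D2:**
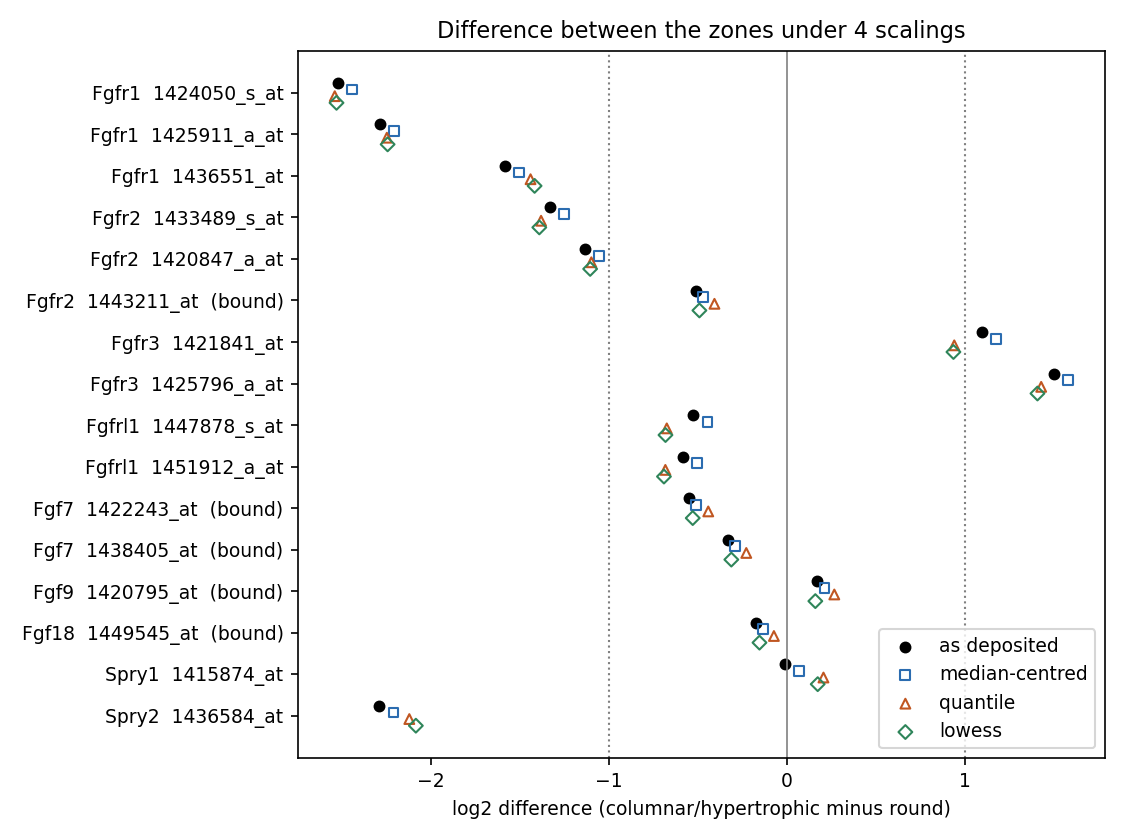
Log2 difference (columnar/hypertrophic minus round) of the 16 compared member probe sets under 4 scalings of the arrays, with dotted lines at 2-fold in each direction and bounds marked in the row names. *Fgfr1*, *Spry2* and the brighter *Fgfr2* probe sets stay beyond 2-fold toward the round zone, 1 *Fgfr3* probe set crosses the 2-fold line, and *Spry1* lies on either side of 0.

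The ligand probe sets lay around or under the floor. *Fgf18*, encoding a ligand of FGFR3 that the perichondrium makes, had signals of 74.5 in the round zone and 4.85 in the columnar/hypertrophic zone (1449545_at). Only the first was above the floor, so its signal was at least 1.13-fold higher in the round zone. *Fgf9*, a ligand of FGFR3 that is needed for early growth of the proximal limb bones, had 34.6 and 74.2 at 1420795_at, higher by at least 1.13-fold in the columnar/hypertrophic zone. At 1438718_at its signals of 39.3 and 24.7 were both under the floor. The *Fgf9* and *Fgf18* bounds were thus close to 1, and neither zone can be called the richer one at this signal over background.

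*Fgf7*, a ligand made by mesenchymal cells for the epithelial form of FGFR2, was above the floor in the round zone alone. Its signals were 96.6 and 59.2 at 1422243_at, at least 1.47-fold higher in the round zone. At 1438405_at they were 83.1 and 35.7, at least 1.26-fold higher there. The 2 probe sets thus had the same direction, and neither bound reached 2-fold. *Fgf2*, encoding basic FGF, which is stored in cartilage matrix, had signals of 56.1 and 7.5 at its only probe set, both under the floor, so no fold is given.

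*Spry2* and *Spry1* encode intracellular inhibitors of receptor tyrosine kinase signalling to ERK and are induced by FGF. *Spry2* had a signal of 488 in the round zone and 99.97 in the columnar/hypertrophic zone at 1436584_at, a log2 difference of -2.29. Only 0.75% of all genes had a more negative difference. Its other probe set (1421656_at) had 55.3 and 38.3, both under the floor, so the *Spry2* difference rests on 1 probe set. Under the other scalings it was -2.21, -2.12 and -2.08. *Spry1* had 119.9 and 118.8 at its only probe set, a log2 difference of -0.01, and the sign turned with the scaling, to 0.07 after median centring, 0.20 after quantile normalization and 0.17 after lowess centring. The 2 Sprouty genes thus had unequal differences, that of *Spry2* lying beyond 2-fold and that of *Spry1* near 0. Both *Spry1* signals, and that of *Spry2* in the columnar/hypertrophic zone, were not far above the floor of 65.9. With a floor of 207, *Spry2* became -1.24, a bound, and *Spry1* could not be compared.

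**Figure D3:**
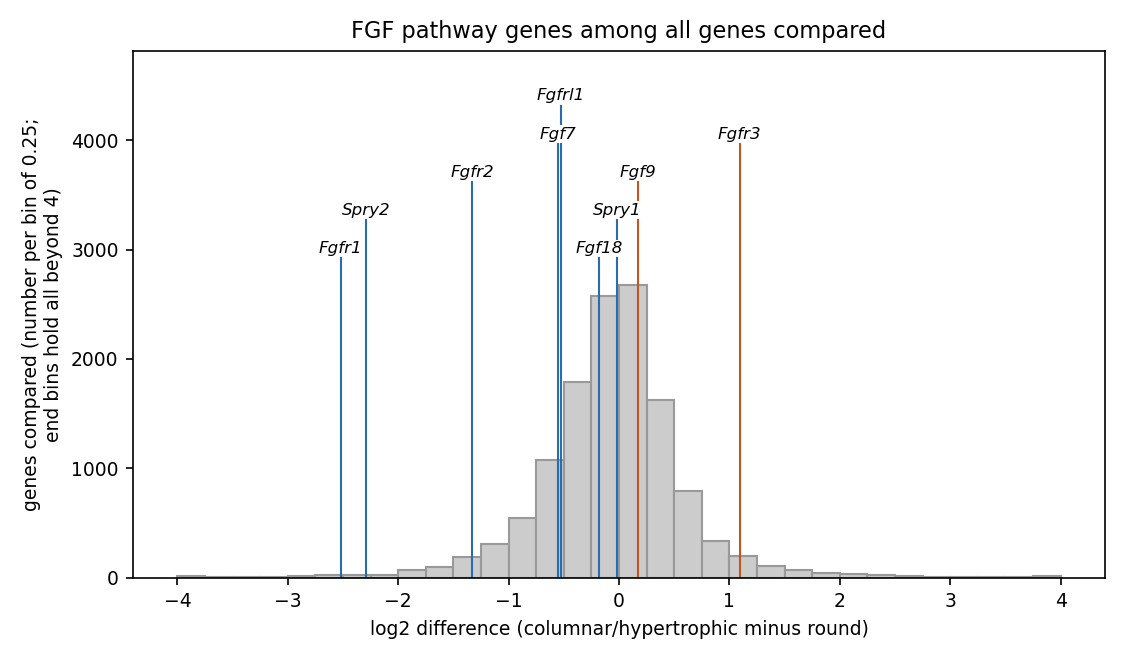
Number of genes (vertical axis, per bin of 0.25) by log2 difference, columnar/hypertrophic minus round, for the 12761 genes compared, with lines for the 9 compared FGF genes; the heights of the lines carry no value, and the outermost bins hold all genes beyond 4. *Fgfr1*, *Spry2* and *Fgfr2* stand in the left tail, *Fgfr3* in the right tail and the ligands, with bounds only, in the middle.

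Further genes of the pathway were taken from 9 lists, of 86 genes in all. Of these, 75 had a probe set annotated to them alone and 54 could be compared, of which 5 exceeded 2-fold toward the round zone and 4 toward the columnar/hypertrophic zone. These are 9.26% and 7.41% of the 54, beside 6.25% and 4.28% of all genes compared. The median log2 difference of the 54 genes was -0.16, with 38 lower and 16 higher in the columnar/hypertrophic zone, beside 6793 lower and 5968 higher of all 12761 genes. The other 11 genes were not analysed here.

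Of the 14 other ligand genes, 3 could be compared and 0 reached 2-fold. *Fgf10*, which starts limb bud outgrowth, had signals of 51.5 and 11.9, both under the floor. *Fgf1*, an acidic FGF that binds all receptors, had 79.0 and 59.5, at least 1.2-fold higher in the round zone. *Fgf21*, an endocrine FGF gene, had 320 and 370, above the floor in both zones. *Fgf4*, a gene of early limb patterning, had 142 and 141 at its brightest probe set. Of the 4 probe sets of *Fgf4*, only that 1 was above the floor in either zone. The other 11 of the 14 were under the floor in both arrays, whereas 12761 of all 18193 genes could be compared. Among the 4 intracellular FGF homologous factors, which bind sodium channels and do not act through the receptors, 3 were compared and *Fgf11* was at least 2.60-fold higher in the round zone (172 and 42.9).

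The list of other receptors, klothos and binding partners had 6 compared genes, 0 beyond 2-fold, and a median log2 difference of -0.38. *Fgfr4*, the remaining kinase receptor gene, had signals of 615 and 583, a log2 difference of -0.08, and its 4 compared probe sets lay between -0.72 and 0.07. *Fgfr4* thus differed little between the zones at its brightest probe set. *Kl* and *Klb*, the co-receptor genes for endocrine FGFs, were under the floor in both arrays.

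Of the other Sprouty and Spred genes, 4 of 5 were compared, all 4 were lower in the columnar/hypertrophic zone and 0 reached 2-fold, with a median of -0.48. *Spry3* was nearly equal, with 164 and 156, a log2 difference of -0.07. *Spred2* had 1438 and 804, a log2 difference of -0.84, and its 4 compared probe sets lay between -1.70 and 0.70. *Spry4* had 71.3 and 2.19, at least 1.08-fold higher in the round zone. *Spred1*, whose product blocks RAS activation, had 2182 and 1119, a log2 difference of -0.96, and its 8 probe sets lay between -1.72 and 0.12, the latter a bound. It therefore lay just short of 2-fold at the brightest probe set and beyond it at others.

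In the list of other feedback inhibitors and ERK phosphatases, 8 of 11 were compared, 1 was beyond 2-fold in each direction and the median was -0.20. The list also held *Lgals3* and *Sh2b1*, whose products are neither. Both are among the 8 compared, with log2 differences of 0.78 and -0.49. *Dusp6*, the ERK phosphatase gene that FGF induces, had 561 in the round zone and 142 in the columnar/hypertrophic zone, a log2 difference of -1.98. *Dusp9*, another ERK phosphatase gene, had 45.2 and 266, higher by at least 4.04-fold in the columnar/hypertrophic zone, and its 3 probe sets had bounds of 1.54 to 2.01 on the log2 scale. The ERK phosphatases were thus not of 1 direction. *Il17rd*, the Sef inhibitor gene, was under the floor in both arrays at both probe sets (61.2 and 46.2, and 58.0 and 57.0).

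The largest differences of the related lists were among the transcription factors induced by FGF, of which 6 of 9 were compared. Of these, 3 were beyond 2-fold toward the round zone and 1 toward the columnar/hypertrophic zone, with a median of -0.66. The median was -2.44 with specific probe sets only. That setting leaves out the genes of the list that were higher in the columnar/hypertrophic zone, among them *Myc*, so the medians cover different genes. *Etv5*, an ETS factor gene induced by FGF signalling, had 2246 and 182, a log2 difference of -3.63, and its 3 probe sets lay between -3.63 and -2.10. *Egr1*, an immediate early gene, had 3559 and 221, a log2 difference of -4.01. *Fos*, also immediate early, had 3614 and 1509, a log2 difference of -1.26. These 3 genes were higher in the round zone, like *Spry2* and *Dusp6*, and *Egr1* and *Fos* also respond to many signals other than FGF. *Myc* was 2.50-fold higher in the columnar/hypertrophic zone, with 1239 and 3101. *Etv4*, the close relative of *Etv5*, was under the floor in both arrays at both probe sets (43.1 and 41.4, and 5.6 and 4.46).

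The adaptors and the RAS-ERK cascade carry the signal inside the cell. Of 10 compared adaptor genes 0 reached 2-fold, with a median of -0.05, and of 7 compared RAS-ERK genes 1 did, with a median of -0.11 that was 0.37 when probe sets were averaged. That gene, *Map2k2*, encoding the ERK kinase MEK2, had 918 and 1883 at the brighter probe set, a log2 difference of 1.04, and 94.9 and 452 at the other, a log2 difference of 2.25. Of 7 compared STAT and cell cycle genes that FGFR3 is known to act on, 1 was beyond 2-fold. *Cdkn1a*, the p21 cell cycle inhibitor gene that FGFR3 signalling is known to induce, had 562 and 3951, a fold of 7.03 and a log2 difference of 2.81, and its second probe set had 338 and 2638. *Cdkn1a* thus had the same direction as *Fgfr3*, while the list as a whole had a median of -0.39. A link between the *Cdkn1a* and *Fgfr3* differences was not tested.

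**Figure D4:**
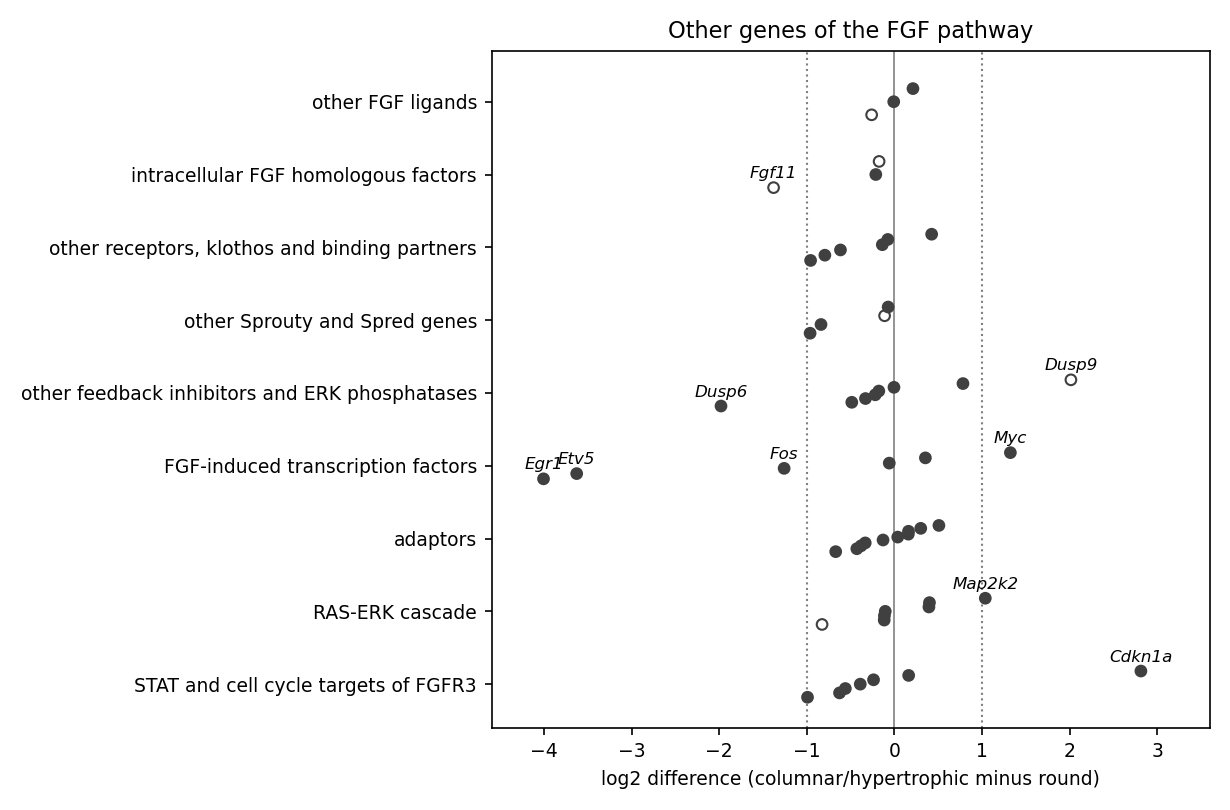
Log2 difference (columnar/hypertrophic minus round) of the 54 compared related genes by list, with dotted lines at 2-fold; filled circles are genes above the floor in both arrays, open circles are bounds, vertical offsets within a list only separate the points, and the 9 genes beyond 2-fold are named. *Egr1*, *Etv5* and *Dusp6* lie farthest toward the round zone and *Cdkn1a* and *Dusp9* farthest toward the columnar/hypertrophic zone, whereas the adaptors lie near 0.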

How the data were processed

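Groups were taken from the sample labels. The values the authors deposited are linear intensities per probe set, up to 68899. MAS5, with no version, is named in the submitters' processing notes, and the methods of the study name robust multiarray analysis, whose output would be logarithmic. Their means without the lowest and highest 2% were 497 and 496, and they were used unscaled. Near-equal means do not show that no scaling was needed, and other scalings served as alternatives. The probe sets above the floor were 61.3% and 58.7% in the round and columnar/hypertrophic zones, and detection calls were not used here. Of 45037 probe sets, 34945 were annotated to 1 gene, 932 to several and 9160 to none. The deposited intensities were set to the floor where lower and converted to log2. Each gene was represented by the probe set whose mean log2 signal was highest, the first by identifier where all were under the floor. A single array per zone allows no test, and genes were counted at 2-fold. The only spread is that between probe sets of a gene, a pooled SD of 0.34 over 5446 genes, which holds no variation between animals, and the number of arrays limits the precision. The members and lists were chosen with earlier results of these data known. All 10 members were named, with related genes beyond 2-fold (up to 4 a list), *Fgfr4*, *Spry4*, *Dusp6*, *Etv4*, *Etv5*, *Fgf1*, *Fgf10*, *Il17rd* and zone markers. *Spred1*, *Spred2*, *Spry3*, *Lgals3*, *Sh2b1*, *Kl*, *Klb*, *Fgf4*, *Fgf21*, *Mmp13*, *Scx* and *Dpt* were added after their values were seen. Some listed genes are not reported here. Alternatives were median centring, quantile normalization, lowess centring, a floor at the 20th or 60th percentile or none, averaging a gene's probe sets, using specific probe sets alone and a 3-fold rule. Specific probe sets are those outside the classes that may match other genes and outside the class shared by transcripts of 1 gene. Endothelial, muscle, erythroid and myeloid marker lists had 6, 4, 1 and 3 compared genes, of which 0, 1, 0 and 0 exceeded 2-fold toward the round zone and 0, 2, 0 and 0 toward the other. Steps were tested on simulated data. Calculations ran in Python 3.11.15 with pandas 2.3.3, numpy 2.4.6, matplotlib 3.10.9 and statsmodels 0.14.6.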

Additional observations from a re-analysis of the deposited data

How the results depend on the processing

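Signs of called values turned in 0 cases. Of the values set against an alternative, 108 of the main ones moved by less than the pooled SD of 0.34 (counts, by at most 1.5 times) and 35 moved by more, and of the others 159 and 17 did.

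Scaling changed the call of *Fgfr3*: after quantile normalization or lowess centring, 1 of its probe sets (2 as deposited) and 0 genes (1 as deposited) passed 2-fold toward the columnar/hypertrophic zone. Of all calls, 36.4% were toward that array as deposited, 48.6% after quantile normalization and 46.6% after lowess centring.

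With the floor at the 20th percentile, 3936 of all probe sets passed toward the round zone and 2369 toward the other, or 10.1% and 6.06% of those compared. At the 60th percentile 801 and 601 passed, or 4.13% and 3.1%, and without a floor 7128 and 5074, or 15.8% and 11.3%. At the 20th percentile and without a floor alike, 10 member probe sets and 5 member genes passed toward the round zone and 2 member genes toward the other. Related genes toward the round zone then numbered 13 and 16, and the median of the other Sprouty and Spred genes was -0.84. The shares of all genes in these settings are not given here, so the gene counts stand without a background. *Fgf9* became 1.1 in both settings and *Fgf18* -1.72 and -3.94, all from signals near or under the original floor. At the 60th percentile, a floor of 207, *Spry2* became -1.24, *Dusp6* -1.44 and *Dusp9* 0.36, all bounds by construction. The members *Fgf7*, *Fgf9*, *Fgf18* and *Spry1* could not be compared there, nor could *Fgf1*, *Spry4* and *Fgf11*.

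With specific probe sets only, 2 member probe sets passed toward the round zone and 1 toward the other, beside 6.63% and 3.37% of all probe sets compared. The number of member probe sets compared in that setting is not given here, so the member counts carry no share. *Fgfr1* became -1.58 and *Fgfr2* -0.51, a bound. That setting also drops probe sets shared by transcripts of 1 gene, such as those of *Fgfr1* at -2.29 and *Fgfr2* at -1.13. It left *Fgfrl1* without a probe set. The mean over probe sets gave -2.13 for *Fgfr1*. At 3-fold, 572 and 385 of all 29258 probe sets compared passed toward the round and columnar/hypertrophic zones, respectively. Of the 16 member probe sets compared, 3 and 0 did. Of the 9 member genes compared, 2 and 0 did, and of the 54 related genes, 3 and 2. The shares of all genes at 3-fold are not given here, so these gene counts stand without a background. Apart from these constructions the cause was not tested. No paired analysis was possible because the zones were each measured once and no test was made. Signals near the floor limit the ligands, for which small differences were not detectable.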
